A study of Mus musculus with 12 samples.

Results

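The 10 genes described here encode surface proteins of endothelial cells that hold or guide leukocytes at the vessel wall: the selectins Sele and Selp, the immunoglobulin-family molecules Icam1, Icam2, Vcam1 and Mcam, the sialomucins Cd34 and Podxl, and Cd47 and Cd99l2. They were taken by symbol, through their Ensembl identifiers, from the 28689 genes of the deposited table, and all 10 were in it. The series holds RNA-seq of mouse lung endothelial cells (MLECs), with 6 libraries for the CTR group and 6 for the dKO group. MLECs are cultured cells, taken from lung with beads against CD31 and then with beads against intercellular adhesion molecule 2, the protein that Icam2 encodes, and used at early passages. The dKO mice were VE-CAD-CreERT2+/Sp1 fl/fl/Sp3 fl/fl animals given tamoxifen, in which Cre driven by the VE-cadherin promoter deletes Sp1 and Sp3 in endothelial cells. The CTR mice were littermates without Cre that carried the same floxed alleles and received the same tamoxifen. The labels call the CTR genotype WT. The study used young adult male mice. The labels give no age and do not say how many mice went into a library. P-values therefore measure the spread between these libraries, which may be in part technical.

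Leukocytes leave the blood in steps. Endothelial selectins catch passing cells through sugar-bearing ligands, immunoglobulin-family molecules such as ICAM-1 and VCAM-1 then bind leukocyte integrins and hold the cell, and molecules of the cell border such as CD99L2 take part in its passage. In endothelial cells, E-selectin, VCAM-1 and much of ICAM-1 are made on demand when inflammatory cytokines activate NF-kB, whereas ICAM-2, CD34, podocalyxin, MCAM and CD47 are present on resting cells. Sp1 and Sp3 are transcription factors that bind GC boxes in promoters.

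Promoter windows from RefSeq, 250 bases before to 50 bases after a transcription start, were found for 7 of the 10 genes. Icam2, Vcam1 and Podxl had no entry in the table used. Sequences of 5 genes are shown, because Sele, Selp and Icam1 share a high level in a single dKO library, described later, and Mcam and Cd47 hold the most GC boxes. Each window has 300 bases on the plus strand of GRCm39, found by an exact match of the RefSeq sequence. The windows are chr1:163875553-163875852 for Sele, chr1:163942583-163942882 for Selp, chr9:20926986-20927285 for Icam1, chr9:44045705-44046004 for Mcam and chr16:49675767-49676066 for Cd47. Capitals mark the GC box (GGGCGG or its complement CCGCCC) and the motif TATAAA (either strand).
Sele: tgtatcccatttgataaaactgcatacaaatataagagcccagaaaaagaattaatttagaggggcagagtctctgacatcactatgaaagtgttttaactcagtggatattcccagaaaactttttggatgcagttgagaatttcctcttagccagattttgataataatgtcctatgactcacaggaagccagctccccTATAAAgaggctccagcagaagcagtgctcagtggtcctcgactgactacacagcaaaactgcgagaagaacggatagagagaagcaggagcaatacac
Selp: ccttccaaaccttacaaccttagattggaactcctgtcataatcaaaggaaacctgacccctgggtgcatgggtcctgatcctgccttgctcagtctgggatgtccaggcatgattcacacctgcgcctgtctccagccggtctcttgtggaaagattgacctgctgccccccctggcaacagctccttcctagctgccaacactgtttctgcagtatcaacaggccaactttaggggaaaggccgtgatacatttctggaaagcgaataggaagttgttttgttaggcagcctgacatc
Icam1: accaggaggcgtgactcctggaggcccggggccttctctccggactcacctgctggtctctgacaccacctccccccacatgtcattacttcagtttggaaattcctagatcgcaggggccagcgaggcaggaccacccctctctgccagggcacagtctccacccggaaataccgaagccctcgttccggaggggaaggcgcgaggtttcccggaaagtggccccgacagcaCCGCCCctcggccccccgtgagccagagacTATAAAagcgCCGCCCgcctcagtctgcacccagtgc
Mcam: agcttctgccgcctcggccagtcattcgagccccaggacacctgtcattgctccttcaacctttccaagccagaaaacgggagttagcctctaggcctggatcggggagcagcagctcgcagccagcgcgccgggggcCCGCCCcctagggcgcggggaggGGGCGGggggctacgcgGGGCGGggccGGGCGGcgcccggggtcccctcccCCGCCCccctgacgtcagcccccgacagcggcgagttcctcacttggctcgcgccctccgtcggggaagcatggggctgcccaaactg
Cd47: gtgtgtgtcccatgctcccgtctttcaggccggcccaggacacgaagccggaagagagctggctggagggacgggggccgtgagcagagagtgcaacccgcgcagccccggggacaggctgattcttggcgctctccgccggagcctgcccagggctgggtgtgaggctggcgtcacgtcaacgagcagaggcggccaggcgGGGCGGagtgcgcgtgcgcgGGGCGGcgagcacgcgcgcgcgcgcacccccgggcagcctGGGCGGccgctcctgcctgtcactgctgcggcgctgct
The Mcam window held 5 GC boxes, all before the start, between position -112 and position -33 counted from the start. Cd47 had 3 in either of its 2 annotated windows, Icam1 had 2, at -17 to -12 and at 24 to 29, and Cd99l2 had 2. Sele, Selp and Cd34 had none. Of all 32851 promoter windows of the same length, 35.7% held a GC box, against 4 of the 7 genes matched here. TATAAA stood in the Sele window at -49 to -44 and in the Icam1 window at 14 to 19, and in 13.6% of all windows. A strict consensus motif of NF-kB, GGGRNNYYCC (R for A or G, Y for C or T, N for any base), was searched on both strands. It was in none of the 7 genes' windows and in 8.46% of all windows. Stretches close to this pattern were not counted, such as tggaaattcc in the Icam1 window and ggatattccc in the Sele window. The absence of a match therefore does not show that these windows lack NF-kB sites. The share of G and C ranged from 41.7% in Sele to 74.0% and 74.3% in the windows of Cd47, around a median of 52.7% over all windows. No match of one motif overlapped a match of another in these genes. These are matches of letters and not measured binding sites, and binding of Sp1 or Sp3 was not measured in these libraries.

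Depth was even, with 15523054 to 17938286 fragments per library, so that a single fragment added 0.0279 to 0.0322 FPKM (fragments per kilobase, relative to all fragments of that library) at a gene length of 2 kb. Sp1 fell from 21.2 ± 1.77 (SD, n = 6) to 10.6 ± 1.53 FPKM (n = 6; log2 fold change -0.94, adjusted p = 5.68e-06, limma), and all 6 dKO libraries lay below all CTR libraries. Sp3 was at 27.7 ± 2.31 and 25.0 ± 1.64 FPKM and did not pass the test (log2 fold change -0.14, adjusted p = 0.0902, limma), with 2 of 6 dKO libraries below the lowest CTR library. The table's dKO columns carry the name of tamoxifen, given to both groups, so their match to the label rests on elimination. Markers of other cell types differed between the groups as well, beside those of endothelial cells. The summed FPKM of 10 endothelial markers (8 higher, 0 lower; Cdh5, VE-cadherin, 88.9 and 140 FPKM) ran from 148 to 230.2 in CTR and from 272 to 355 in dKO. The sum of 10 macrophage markers (9 higher, 1 lower; Lyz2, lysozyme, 746 and 1868 FPKM) ran from 819 to 1378 in CTR and from 2288 to 5029 in dKO. For 5 mesothelial markers (4 higher, 0 lower; Msln 15.8 and 42.9 FPKM) it ran from 21.4 to 30.6 and from 58.1 to 135. For 5 megakaryocyte and platelet markers (1 tested and higher, Pf4, 15.4 and 75.8 FPKM) it ran from 7.63 to 34.5 and from 48.3 to 110, mostly Pf4. Itga2b of the same list, below the filter, went the other way, from 0.648 to 0.243 FPKM without overlap. Ppbp, Gp9 and Gp1bb rested on at most 12 fragments per library. For 5 fibroblast markers (1 higher, 2 lower; Col1a1 1173 and 572 FPKM) the sum was 1709 to 2055 in CTR and 704 to 1285 in dKO. Sums overlapped between the groups for 6 mural markers (2 higher, 0 lower; 495 to 1408 and 452 to 836, mostly Acta2) and 5 lung epithelial markers (1 higher, 0 lower; 81.2 to 491 and 141 to 352, mostly Sftpc). The 6 lymphocyte and granulocyte markers (2 tested, both higher; S100a8 at 2.12 and 5.5 FPKM) summed to 1.76 to 5.17 and 6.64 to 14.1. The T-cell gene Cd3e was listed at 0 in all CTR libraries and had at most 1 fragment in any dKO library. Retinal markers, listed because the label's protocol names that tissue, summed to at most 0.466 FPKM. Crx was at 0 in all CTR libraries and had at most 1 fragment in any dKO library. In bulk RNA, fewer cells of a type and less RNA per cell cannot be told apart, and the part of these cell types in the differences given next was not tested.

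The question asked of the adhesion genes was whether their RNA level differed between dKO and CTR MLECs. Of the 9 genes tested, 7 were higher in dKO and 0 were lower at an adjusted p under 0.05 (limma on log2(FPKM + 1), dKO minus CTR). Across all 12467 tested genes, 20.4% were called higher and 32.6% lower, 53.1% in all. Icam2, Icam1 and Selp differed by most, with mean FPKM 2.63, 2.40 and 2.60 times that of CTR, followed by Podxl (1.48 times), Cd47 (1.39), Vcam1 (1.39) and Mcam (1.23). The Selp mean owes much to dKO replicate 5 (17.1 FPKM): without it the dKO mean was 4.20 in place of 6.34 FPKM. Cd34 and Cd99l2 did not pass the test, and Sele, at under 1 FPKM in most libraries, was below the filter. For 5 of the 9 tested genes, Icam1, Icam2, Selp, Podxl and Cd47, all dKO libraries lay above all CTR libraries, as they did for 11.3% of all tested genes. None of the 9 passed both the adjusted p and an absolute log2 fold change of 1.5, the threshold in the study's main text, which 1.98% of all tested genes did. A change of 1.5-fold, another wording of the study, was passed by 3 of the 9, Icam1, Icam2 and Selp, and by 17.9% of all tested genes. The median log2 fold change was 0.46 over the 9 genes and -0.10 over all tested genes. The 9 differences were positive under each scaling to whole-library values that was tried. When each library was instead scaled to its endothelial markers, an alternative chosen after seeing the data, Icam2 (0.64) and Icam1 (0.46) stayed higher, Mcam (-0.39), Cd34 (-0.37) and Cd99l2 (-0.50) were lower, and the 4 others (Selp 0.34, Podxl -0.12, Cd47 -0.22, Vcam1 -0.22) did not pass.

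**Figure D1:**
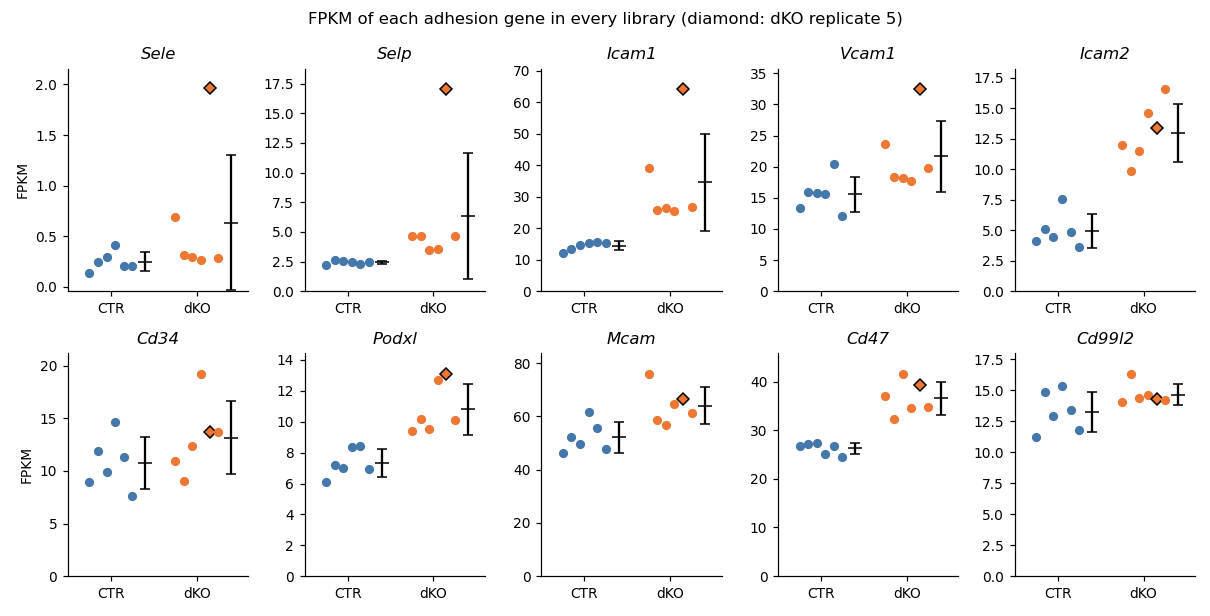
FPKM of the 10 adhesion genes in every library, with CTR in blue, dKO in orange and the mean ± SD of 6 libraries beside each group. The diamond is dKO replicate 5, which is the highest dKO library for Sele (1.96), Selp (17.1), Icam1 (64.3), Vcam1 (32.5) and Podxl (13.1).

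Sele (ENSMUSG00000026582, chr1:163867401-163886055) encodes E-selectin, which activated endothelium makes anew and which slows rolling leukocytes. Its level was between 0.138 and 0.413 FPKM in CTR, with a median of 0.223, and between 0.268 and 1.96 in dKO, with a median of 0.302. The 2 highest dKO libraries, replicates 5 (1.96) and 1 (0.686), lay above all CTR libraries, and the other 4 lay among them. These levels rest on 7 to 21 fragments in CTR and on 14 to 100 in dKO, the fewest among the 10 genes. Without the filter the log2 fold change was 0.32 (SE 0.19, adjusted p = 0.263, limma), and limma-voom on fragments of every gene, recovered from the FPKM, an alternative added after seeing the data, gave 0.95 (SE 0.50, adjusted p = 0.196).

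Selp (ENSMUSG00000026580, chr1:163942833-163977595) encodes P-selectin, which endothelial cells and platelets hold in granules and bring to the surface on activation. CTR libraries lay close together, from 2.25 to 2.61 FPKM with a median of 2.46. In dKO the lowest value was 3.47, the median 4.64 and the highest 17.1, so the groups did not overlap. Selp rose by 0.89 on the log2 scale (SE 0.27, 95% CI 0.30 to 1.48, adjusted p = 0.0158, limma). Without dKO replicate 5 the rise was 0.59 (adjusted p = 0.000178) and the dKO mean was 4.20 in place of 6.34 FPKM. The coefficient of variation was 5.72% in CTR and 83.3% in dKO. Selp was not past the threshold when libraries were scaled to endothelial markers (0.34, adjusted p = 0.174).

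Icam1 (ENSMUSG00000037405, chr9:20926672-20940113) encodes ICAM-1, the endothelial ligand of the leukocyte integrins LFA-1 and Mac-1. Its level was 12.1 to 15.5 FPKM in CTR, with a median of 15.0, and 25.4 to 64.3 in dKO, with a median of 26.5. Every dKO library was above every CTR library, and replicates 5 (64.3) and 1 (39.2) stood above the other 4, which lay between 25.4 and 26.8. The log2 fold change was 1.12 (SE 0.20, 95% CI 0.70 to 1.55, adjusted p = 0.000459, limma), and 0.93 without dKO replicate 5 (adjusted p = 5.85e-05).

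Vcam1 (ENSMUSG00000027962, chr3:115903598-115923355) encodes VCAM-1, which binds the integrin VLA-4 of lymphocytes and monocytes. It ran from 12.1 to 20.5 FPKM in CTR, with a median of 15.7, and from 17.6 to 32.5 in dKO, with a median of 19.0. The groups overlapped, and only dKO replicates 5 (32.5) and 1 (23.6) exceeded the highest CTR library, replicate 5. The log2 fold change of 0.44 (SE 0.15, 95% CI 0.11 to 0.76, adjusted p = 0.0268, limma) fell to 0.32 without dKO replicate 5 (adjusted p = 0.0427). The call was lost without CTR replicate 1 (0.40, adjusted p = 0.0545) or CTR replicate 6 (0.37, adjusted p = 0.0588), and without the filter on low genes (adjusted p = 0.0554). Scaled to endothelial markers, Vcam1 was at -0.22 (adjusted p = 0.148).

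Icam2 (ENSMUSG00000001029, chr11:106263312-106278943) encodes ICAM-2, a ligand of LFA-1 that resting endothelium and platelets carry. Both groups of cells had been selected with beads against this protein. Its level was 3.61 to 7.55 FPKM in CTR, with a median of 4.65, and 9.85 to 16.6 in dKO, with a median of 12.7. No dKO library reached down to the CTR range. The log2 fold change was 1.25 (SE 0.15, 95% CI 0.93 to 1.56, adjusted p = 2.35e-05, limma) and 1.23 without dKO replicate 5, which was not the highest here (13.4, against 16.6 in replicate 6). The CTR library with the most Icam2, replicate 4, also had the highest endothelial marker sum of CTR (230.2). Its macrophage (1378) and lung epithelial (491) sums were the highest of CTR as well. In dKO, replicate 6, with the most Icam2, had an endothelial sum of 310, below the 355 of replicate 5. The part of these cell types in Icam2 was not tested.

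Cd34 (ENSMUSG00000016494, chr1:194621029-194647172) and Podxl (ENSMUSG00000025608, chr6:31496418-31540924) are sialomucins of one family, with long, heavily glycosylated outer domains that can carry L-selectin ligands. Cd34 was at 7.62 to 14.6 FPKM in CTR, with a median of 10.6, and at 9.09 to 19.2 in dKO, with a median of 13.1. A single dKO library, replicate 4, lay above the CTR range. The difference of 0.27 (SE 0.17, 95% CI -0.10 to 0.63, adjusted p = 0.195, limma) did not pass here or in any of the 27 alternative fits on whole-library values. Scaled to endothelial markers, Cd34 was lower (-0.37, adjusted p = 0.0129). Podxl, which encodes podocalyxin, was at 6.08 to 8.41 FPKM in CTR, with a median of 7.09, and at 9.38 to 13.1 in dKO, with a median of 10.1, without overlap. Podxl rose by 0.50 (SE 0.10, 95% CI 0.29 to 0.71, adjusted p = 0.00104, limma), and was at -0.12 (adjusted p = 0.21) when scaled to endothelial markers.

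Mcam (ENSMUSG00000032135, chr9:44045504-44054025) encodes MCAM, or CD146, an adhesion molecule of endothelial cell borders that pericytes and smooth muscle cells carry too. It was the most abundant of the 10 genes, with 46.1 to 61.7 FPKM in CTR (median 50.9) and 56.8 to 76.1 in dKO (median 63.0). The groups overlapped, with 3 of 6 dKO libraries above all CTR libraries. Mcam rose by 0.29 (SE 0.09, 95% CI 0.10 to 0.48, adjusted p = 0.0132, limma), but was lower when scaled to endothelial markers (-0.39, adjusted p = 0.00335).

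Cd47 (ENSMUSG00000055447, chr16:49620896-49735373) encodes CD47, a widely made protein that binds SIRP-alpha on phagocytes and thrombospondin and takes part in leukocyte passage. Its CTR libraries held 24.5 to 27.4 FPKM (median 26.8) and its dKO libraries 32.3 to 41.6 (median 35.9). The groups did not overlap, and Cd47 had the smallest standard error of the 9 tested genes: its log2 fold change was 0.46 (SE 0.07, 95% CI 0.32 to 0.60, adjusted p = 0.000105, limma). Scaled to endothelial markers it was at -0.22 (adjusted p = 0.13).

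Cd99l2 (ENSMUSG00000035776, chrX:70452401-70536461) encodes CD99L2, a protein of cell borders that leukocytes meet while crossing the endothelium. It ran from 11.2 to 15.3 FPKM in CTR (median 13.2) and from 14.1 to 16.3 in dKO (median 14.4). Only 1 dKO library, replicate 2, lay above the CTR range. The difference of 0.14 (SE 0.08, 95% CI -0.02 to 0.31, adjusted p = 0.136, limma) did not pass the test, but it did under median-of-ratios scaling (0.23, adjusted p = 0.0311) and with array weights (0.17, adjusted p = 0.0405). Scaled to endothelial markers, Cd99l2 was lower (-0.50, adjusted p = 0.000345). Mtmr1 overlaps Cd99l2 on the opposite strand at 6.19 and 6.31 FPKM, and the use of strand in counting is not given in the sources used here.

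**Figure D2:**
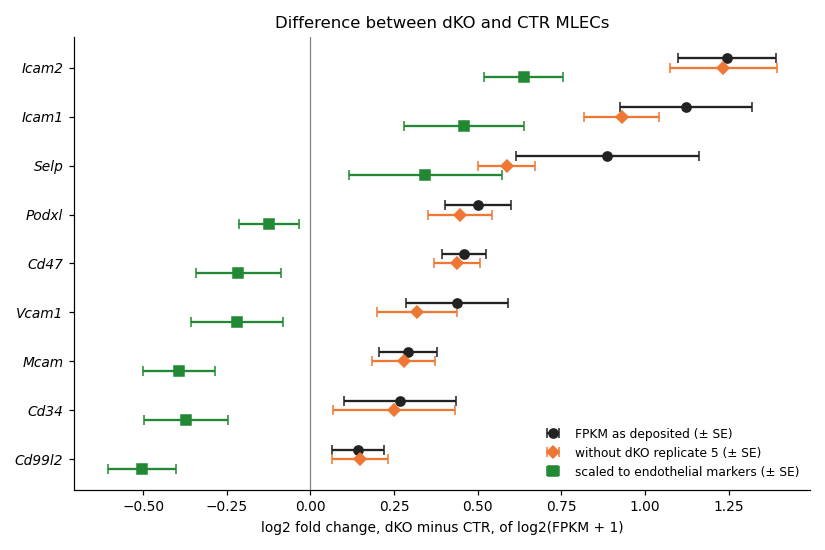
Difference between dKO and CTR in log2(FPKM + 1), with its SE, for the 9 genes that passed the filter: as deposited (black), without dKO replicate 5 (orange) and scaled to endothelial markers (green). The 9 black points are above 0, and with the green points Icam2 (0.64), Icam1 (0.46) and Selp (0.34) are above 0 and the other 6 below.

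Levels per length can be set against each other within a library. In CTR, the order of the mean FPKM was Mcam (52.2), Cd47 (26.3), Vcam1 (15.5), Icam1 (14.4), Cd99l2 (13.3), Cd34 (10.7), Podxl (7.33), Icam2 (4.95), Selp (2.44) and Sele (0.248). The ranges over libraries of neighbours in this order overlapped from Vcam1 down to Icam2 and were separate elsewhere. Within a library the order was steadier: each gene was above the next in all 6 CTR libraries, except that Vcam1 was above Icam1, and Icam1 above Cd99l2, in 5 of 6. In dKO, Icam1 (34.6) was above Vcam1 (21.7) in all 6 libraries, and Icam2 (13.0) was above Podxl (10.8) in 5 of 6. The log2 ratio of Icam1 to Vcam1, each with 1 FPKM added, was -0.09 ± 0.23 (SD, n = 6) in CTR and 0.60 ± 0.21 (n = 6) in dKO, a difference of 0.69 (SE 0.13, exact two-sided permutation p = 0.00216, adjusted over 4 pairs 0.00433). This p is the smallest that exact permutation of 6 against 6 libraries can give. The ratio of Icam1 to Icam2 differed by -0.12 (SE 0.26, exact permutation p = 0.645, adjusted 0.645), and that of Cd34 to Podxl by -0.23 (SE 0.14, exact permutation p = 0.119, adjusted 0.159). The ratio of Sele to Selp differed by -0.57 (SE 0.14, exact permutation p = 0.00216, adjusted 0.00433) with 1 FPKM added, but by -0.30 (adjusted 0.231) with 0.1 and -0.15 (adjusted 0.587) with 0.01, and the mean Sele level was 0.101 of the Selp level in CTR and 0.10 in dKO.

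Among the dKO libraries, replicate 5 stood apart in some of these genes and not in others. It had the highest level of the 6 dKO libraries in 5 of the 10 genes, Sele, Selp, Icam1, Vcam1 and Podxl, and lay above all CTR libraries in 8. Its level was 6.69 times the median of the other 5 dKO libraries for Sele, 3.70 times for Selp, 2.44 times for Icam1 and 1.77 times for Vcam1. The same quotient was 1.3 for Podxl, and for Icam2, Cd34, Mcam, Cd47 and Cd99l2 it lay between 0.995 and 1.13. Across all tested genes, replicate 5 was the highest dKO library in 13.1%. It was the highest in 4 of 10 endothelial markers. In lists described below it was the highest in 4 of 6 shedding genes and 4 of 12 tested selectin-ligand genes. The counts were 3 of 13 other adhesion molecules, 1 of 3 other sialomucins, 1 of 10 genes of the actin link and 0 of 11 counter-receptors and CD47 partners. In the list of 14 receptors, inducing factors and NF-kB feedback genes, replicate 5 was the highest in 7. It was so by most in the 2 feedback genes. These were Nfkbia, the inhibitor that NF-kB induces (166 FPKM, against 59.9 to 63.0 in the other dKO libraries), and Tnfaip3, which encodes A20 (18.0 against 2.75 to 4.33). By less, replicate 5 stood above the others in Nfkb1 (13.4 against 7.37 to 9.20), Il1r1 (19.9 against 10.2 to 14.8) and Irf1 (15.7 against 7.22 to 11.3). It was not the highest in the other 7, among them Tnfrsf1a (74.3 against 70.9 to 90.6). Its macrophage marker sum, 2288 FPKM, was the lowest of dKO, and most of that sum was Lyz2 (1415). Macrophage markers did not all go that way. Replicate 5 was the highest dKO library in 1 of the 10, Cd14 (64.0 FPKM, against 8.87 to 16.2 in the other dKO libraries). Its endothelial marker sum, 355, was the highest of dKO, close to the 353 of replicate 4. What set replicate 5 apart was not tested. The genes called without it were the same 7. In CTR, the lowest level of all 10 genes was in replicate 1 (6 genes) or replicate 6 (4 genes), which also had the lowest endothelial marker sums of CTR, 148 and 158. The same libraries had the lowest fibroblast sums of CTR (1776 and 1709) and the lowest lung epithelial sums (81.2 and 109.8). Their mural sums were the highest of CTR (987 and 1408). The share of all tested genes at their lowest in these libraries was not computed, and the cause was not tested.

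**Figure D3:**
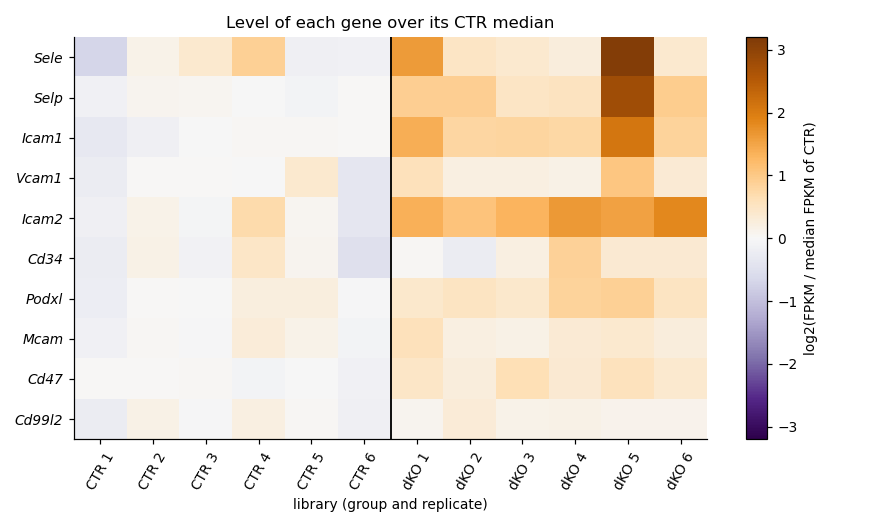
Level of the 10 genes in each of the 12 libraries as log2 of the FPKM over the gene's CTR median. Sele, Selp, Icam1 and Vcam1 have their highest level in dKO replicate 5, while Icam2 is above every CTR library in all 6 dKO libraries and highest in replicate 6.

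Among 17 other adhesion and transmigration molecules in the table, 13 were tested, and 8 were higher and 2 lower in dKO, with a median log2 fold change of 0.37. Cd81, a tetraspanin and the most abundant of them in CTR, rose from 82.4 to 116 FPKM (0.49, adjusted p = 0.000351, limma). Jam2, a junctional adhesion molecule, rose from 6.28 to 14.7 FPKM (1.18, adjusted p = 0.00927), Cd44, the hyaluronan receptor, from 28.7 to 62.5 (1.1, adjusted p = 0.00023), and Pecam1, which encodes CD31, from 33.4 to 60.2 (0.84, adjusted p = 0.000147). Cd44 is made by macrophages as well, and Pecam1 is also one of the endothelial markers. Of 5 other sialomucins, 3 were tested, and they went both ways: Emcn (endomucin, of venous and capillary endothelium) rose from 8.17 to 17.9 FPKM (0.98, adjusted p = 0.00122), Cd164 from 79.6 to 93.8 (0.23, adjusted p = 0.0207), and Spn (CD43, of leukocytes) fell from 4.51 to 1.59 (-1.09, adjusted p = 4.3e-06). The median of these 3 was 0.23.

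Genes whose proteins link adhesion molecules to actin, or signal at that link, were all tested, 10 of 10. Of these 6 were higher and 1 lower, with a median of 0.41. Msn (moesin), the most abundant, was at 183 and 229 FPKM and did not pass (0.33, adjusted p = 0.062, limma). The scaffold genes Nherf1 (14.1 to 36.5 FPKM, 1.31, adjusted p = 4.09e-06) and Nherf2 (16.6 to 30.7, 0.87, adjusted p = 0.0015), whose proteins bind podocalyxin, rose, as did Rhog (34.4 to 49.0, 0.50, adjusted p = 7.07e-05), a GTPase of the cup that forms around a bound leukocyte. Of 14 genes of selectin ligands, mostly the enzymes that build them, 12 were tested, 3 were higher and 1 lower, with a median of 0.10. B4galt1, the most abundant, was at 90.3 and 88.1 FPKM (-0.03, adjusted p = 0.651). B3gnt3, which extends the sugar chains of sialomucins, rose from 7.65 to 13.7 (0.76, adjusted p = 1.18e-05), St3gal6 from 1.12 to 2.16 (0.57, adjusted p = 0.0003) and Tpst2, a tyrosine sulfotransferase, from 19.2 to 26.6 (0.45, adjusted p = 0.0021).

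Counter-receptors of leukocytes and partners of CD47 had the largest median of these lists, 0.78, with 8 of 11 tested genes higher and 1 lower, from 12 in the list. Itgb1, the integrin beta-1 chain, was the most abundant and was at 558 FPKM in both groups (0.02, adjusted p = 0.911, limma). Itgam, the alpha chain of Mac-1 on macrophages and granulocytes, rose from 1.16 to 8.24 FPKM (2.05, adjusted p = 2.81e-06), Thbs1, which encodes the CD47 ligand thrombospondin-1, from 118 to 305 (1.45, adjusted p = 0.00134), and Selplg, the P-selectin ligand of leukocytes, from 2.69 to 7.03 (1.09, adjusted p = 9.25e-05). These genes were higher in the dKO group, as were the macrophage marker sums given above. In a single library, CTR replicate 4, Thbs1 was the lowest of CTR (59.9 FPKM) and the macrophage sum the highest of CTR (1378). Thbs1 and the macrophage sums were not compared over all libraries. The part of macrophages in these genes was not tested. Receptors and factors that induce adhesion molecules, listed together with the NF-kB feedback genes Nfkbia and Tnfaip3, gave 4 higher and 1 lower of 14 tested. The median was 0.05, and both feedback genes were among the 4. Tnfrsf1a, the most abundant of them and the main TNF receptor, was at 90.7 and 82.2 FPKM (-0.14, adjusted p = 0.13). Tnfaip3 rose from 1.6 to 5.98 FPKM (1.15, adjusted p = 0.00824) and Nfkbia from 33.7 to 78.7 (1.1, adjusted p = 0.00175), and the groups did not overlap for either. Without dKO replicate 5 the dKO mean was 3.58 FPKM for Tnfaip3 (0.81, adjusted p = 8.02e-05) and 61.3 for Nfkbia (0.87, adjusted p = 0.000163). Il1r1, the interleukin-1 receptor, fell from 27.5 to 13.7 (-0.96, adjusted p = 0.000237).

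Genes of the shedding of adhesion molecules, metalloproteases and the proteins that guide them, were all tested, 6 of 6. Of these 3 were higher and 0 lower, with a median of 0.29. Adam10, the most abundant, was at 48.7 and 54.2 FPKM (0.15, adjusted p = 0.104, limma). Adam8, a metalloprotease made by leukocytes as well as endothelium, rose from 10.8 to 66.7 FPKM (2.57, adjusted p = 4.07e-06), Rhbdf2, which guides ADAM17 to the surface, from 9.43 to 14.9 (0.58, adjusted p = 0.00148), and Adam15 from 10.1 to 14.0 (0.44, adjusted p = 0.00102). Among the genes named from these related lists, Adam8 and Itgam passed the adjusted p and an absolute log2 fold change of 1.5, and the others did not. The members of these lists are not independent of each other, and the counts are to be read against the 20.4% of genes called higher and 32.6% called lower in the whole table.

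**Figure D4:**
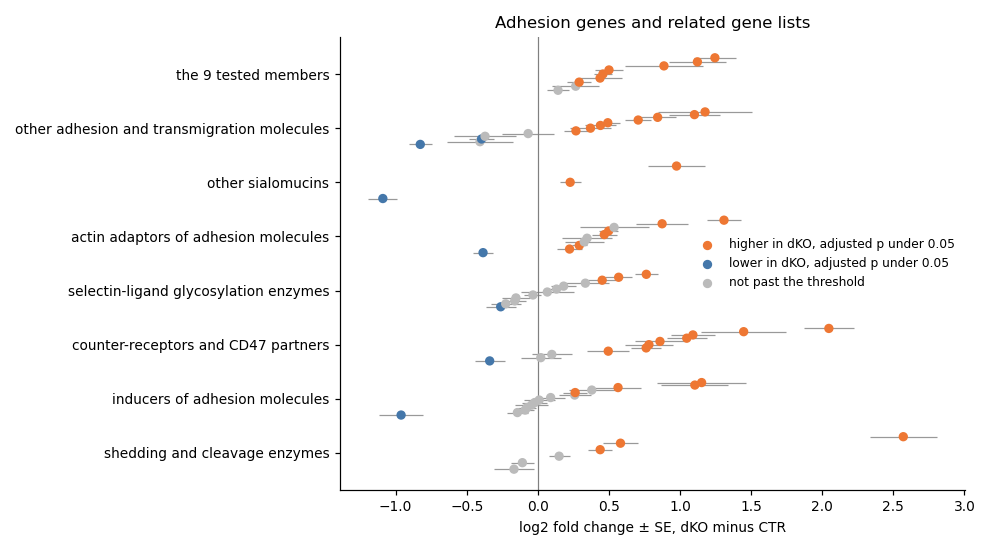
Log2 fold change ± SE, dKO minus CTR, of each tested gene in the adhesion set and in the 7 related lists, with orange for higher and blue for lower at an adjusted p under 0.05 and grey for the rest. The adhesion genes lie between 0.14 and 1.25, Adam8 lies furthest right at 2.57, and Spn furthest left at -1.09.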

How the data were processed

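RNA-seq of cultured MLECs gave 12 libraries. Per the paper's methods, reads were trimmed with Trimmomatic and aligned to mm39 with STAR, and uniquely aligned reads were extracted with sambamba and aligned again, whereas the submitters' processing notes name Bowtie2 2.2.3, HISAT2 2.1.0, TopHat2 and DESeq2. Which of these made the table, the counting program, its annotation and its use of strand are not given in the sources used here. The authors deposited FPKM values for 28689 genes, and 0 columns were left without a sample. Log2(FPKM + 1) was computed here from the deposited FPKM. A fold change on this log2 scale understates the change of low genes.

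The 12467 genes that reached 1 FPKM in 6 or more of the 12 libraries were tested with limma 3.58.1 in R 4.3.3 (lmFit, eBayes with a trend, no block), in place of the count test of the study, with Benjamini-Hochberg adjustment over all tested genes. Whole fragments were recovered from the FPKM values for depth and for limma-voom. Ratios were tested by exact two-sided permutation. Identifiers were matched to the GENCODE annotation of GRCm39 for 27706 genes. Promoters came from RefSeq (a table on GRCm38), and their positions were found by exact match in GRCm39. Other steps ran in Python 3.11.15 with pandas 2.3.3, NumPy 2.4.6 and numba 0.67.0, and figures were drawn with Matplotlib 3.10.9.

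The 10 genes and the lists were chosen with earlier results of these data known. Named genes are the 10, Sp1 and Sp3, from each related list the gene with the highest mean FPKM in CTR and up to 3 called genes with the largest absolute log2 fold change, and from each marker list the gene with the highest mean and any at 0 in a group. The low platelet genes and Cd14 are named as well, to show where a marker list did not move as its sum. Nfkb1 and Irf1 are named for their level in dKO replicate 5. Alternatives were other pseudocounts, filters, scalings and tests, a replicate block and leaving out each library. Depth was 15523054 to 17938286 fragments per library.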

Additional observations from a re-analysis of the deposited data

Results flagged for a closer look

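Icam1 in dKO replicate 5 was 64.3 FPKM, far from the other 5 dKO libraries (25.4 to 39.2), by Dixon's ratio at the 95% level. Selp in the same library was 17.1 FPKM, against 3.47 to 4.69 in the others, and Sele was 1.96, against 0.268 to 0.686. Cd99l2 in dKO replicate 2 was 16.3 FPKM, against 14.1 to 14.6. The log2 ratio of Sele to Selp in CTR replicate 4 was -1.28, against -1.54 to -1.46 in the other CTR libraries. Of 28 groups of 6 values looked at in this way, 5 stood out, and chance alone gives about 1 in 20 for independent, normal values. These groups are not independent: the ratios share genes with the other groups, and Icam1, Selp and Sele stood out in the same library. The 5 therefore cannot be set against that rate.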

How the results depend on the processing

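Over the 27 alternative fits on whole-library values, Icam1, Icam2, Mcam, Podxl and Cd47 passed the threshold in all 27, Selp in 26 of the 26 that tested it, Vcam1 in 24, Cd99l2 in 2 and Cd34 in 0, and no direction changed. One of the 27, limma-voom without the filter, was also added after seeing the data. The number of all genes called, 6614 (53.1% of those tested), was 4222 (53.5% of 7891) with a filter of 5 FPKM, 7550 (26.3% of 28689) without a filter, 7815 with array weights, 7952 with limma-voom without the filter, and 5772 to 6736 without each library in turn. With a 1.5-fold threshold in place of a log2 fold change of 1.5, 3 of the genes in place of 0 passed both thresholds. Without each library in turn, 6 to 7 of the genes were called, 6 to 7 higher and 0 lower. The share of higher calls among all genes was 38.5%, against 50.9% with median-of-ratios scaling, which moved the median of all genes from -0.10 to -0.02. Scaled to endothelial markers, an alternative chosen after seeing the data, 2 were higher and 3 lower (log2 fold changes: Vcam1 -0.22, Cd34 -0.37, Mcam -0.39, Podxl -0.12, Cd47 -0.22, Cd99l2 -0.50). Those markers were themselves mostly higher in dKO. The difference in the log2 ratio of Sele to Selp was -0.30 and -0.15 with 0.1 and 0.01 FPKM added, and -0.63 to -0.46 without each library. For Icam1 to Icam2 it was -0.30 to 0.00, the latter (0.0002, adjusted 1.0) without dKO replicate 6, for Icam1 to Vcam1 0.61 to 0.76 and for Cd34 to Podxl -0.31 to -0.16. The cause of these changes was not tested. Deviations of samples with the same replicate number had a correlation over 0.1 in 3 of 6 pairs, and not every sample correlated best with its own number, so the numbers were not taken to pair the samples. With the number as a replicate block 7 of the genes and 6955 of all genes were called. A comparison of protein sequences was not run. Sele, at 7 to 100 fragments, is the gene that depth limits most.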
